A study of Zea mays with 18 samples.

Results

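The genes described here, 120 of 39755 annotated maize genes without a transcript suffix and of 55661 features in the whole table, are those annotated as making cellulose, the main fibre of the plant cell wall, or as acting in its deposition. A gene was taken where the deposited description, which gives its best protein match and its protein domains, named cellulose synthase, a COBRA-like protein, a fasciclin-like arabinogalactan protein, an endoglucanase or a chitinase-like protein. By their matches, 7 genes encode cellulose synthase A catalytic subunits (CESA) of the kind that serve secondary walls in rice, 24 other CESA, 11 cellulose synthase-like proteins (CSL), 6 cellulose synthase interactive proteins (CSI), 10 COBRA-like proteins, 26 fasciclin-like arabinogalactan proteins (FLA), 30 endoglucanases and 1 a chitinase-like protein. The last 5 matched rice CSLF proteins, a family that makes mixed-linkage glucan and not cellulose, and were taken in because their domain is named cellulose synthase. The names are those of the best match, mostly in rice or *Arabidopsis*. Gene symbols were added for the 100 members whose position in the B73 assembly Zm-B73-REFERENCE-NAM-5.0 overlapped a RefSeq gene of the same build.

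Messenger RNA was sequenced from roots of wild type (WT, inbred line B73) and of *zmccd8*, which carries a Ds transposon in *ZmCCD8*, a gene of strigolactone synthesis, in the B73 background. The mutant is a single insertion line. Plants of both genotypes stood for 4 weeks in vermiculite, either with complete Hoagland solution (CT) or with the same solution in which KCl replaced the 1 mM KNO3 (0N). In the last treatment (WS) plants received the complete solution at transplanting and were not watered again. WS plants thus also got no further nutrients, and effects of water and of nutrient supply cannot be told apart. Each of the 6 groups had 3 libraries, 18 in all, and the study's methods describe a biological replicate as tissue of 4 plants pooled. The values are FPKM, reads on a gene scaled by its length and by the size of the library, so that levels of different genes can be compared.

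CESA proteins assemble into complexes in the plasma membrane that spin glucan chains into microfibrils. One set of CESA serves the expanding primary wall and another the thick secondary wall of xylem and fibres. CSI proteins tie the complexes to cortical microtubules, membrane-anchored endoglucanases of the KORRIGAN type are needed for normal synthesis, and COBRA-like proteins guide the order of the microfibrils. FLA are secreted glycoproteins of the wall and membrane surface, and the chitinase-like protein CTL1 of *Arabidopsis* acts in cellulose deposition.

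A call required a difference in log2(FPKM + 1) of at least 1 in size and an adjusted p of at most 0.05, from limma with Benjamini-Hochberg adjustment over the 27530 features that reached 1 FPKM in at least 3 libraries. Of the 120 members, 83 passed this filter and 8 were at 0 in every library; the 37 that did not pass had means of at most 0.485 FPKM. The rebuilt reads behind the values summed to 30104083 to 43429912 per library. The labelled tissue was checked on marker genes: 11 of 14 root markers passed the filter, as did 8 of 15 leaf markers. Of the latter the small subunit of Rubisco was at a mean of 1.26 and 0.354 FPKM in its 2 genes, while 3 phosphoenolpyruvate carboxylase genes, Zm00001eb238670, Zm00001eb309660 and Zm00001eb204600, reached 143.4, 100.7 and 58.1 FPKM and a pyruvate, phosphate dikinase gene, Zm00001eb287770, 10.7. In bulk roots, fewer cells of a type cannot be told apart from less RNA per cell.

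Among the 0N libraries 2 stood apart for these genes. Replicate 2 of *zmccd8* under 0N was the lowest of all 18 libraries in 41 of the 83 members (49.4%), against 16.2% of all tested features. Replicate 2 of WT under 0N was the highest in 30 members (36.1%), against 5.75% of all tested features. Leaving out either library moved many results under 0N. For some of them, not all, the value without it is also given.

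The most abundant member was a CESA outside the secondary-wall set. *CesA-7* (Zm00001eb306030; chromosome 7, 38018973 to 38024705) had the highest mean over the 18 libraries, 89.7 FPKM, and was the highest member in 10 of them. In WT under CT it was at 92.3 ± 29.2 FPKM (SD, n = 3). Among the other CESA outside that set, Zm00001eb096900, also a match to rice CESA3, followed at a mean of 57.5 over all libraries. *CesA-9* (50.1), *CesA-8* (49.4), *CesA-6* (47.2), *CesA-2* (46.6) and *CesA-4* (44.5) lay close together below it. Lower were Zm00001eb097100 (34.7), *CesA-1* (27.0), *CesA-5* (15.6), Zm00001eb400200 (11.99) and *CesA-3* (9.32). Zm00001eb387870 and Zm00001eb097110 stayed at means of 1.64 and 1.29. A further CESA, Zm00001eb292580 (mean 39.6), varied widely among replicates, with 14.2, 58.2 and 16.7 FPKM in WT under CT and 77.2, 46.7 and 11.9 in WT under WS. The neighbours in the order from *CesA-9* to *CesA-4* differed by less than the SD of each within WT under CT, where they were at 44.4 ± 2.83, 45.6 ± 3.96, 31.3 ± 4.71, 42.8 ± 6.69 and 41.4 ± 5.41 FPKM, with *CesA-6* the exception.

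Of the secondary-wall CESA, 4 were well expressed. *ZmCESA11* (Zm00001eb153340, chromosome 3, 203529845 to 203535563) was at 52.1, 45.3 and 26.8 FPKM in WT under CT, *ZmCESA10* (Zm00001eb046440, chromosome 1, 239980445 to 239984756) at 48.4, 40.8 and 33.3, *CesA13* (Zm00001eb099710, chromosome 2, 187368310 to 187373371) at 18.6, 20.4 and 13.9 and *ZmCESA12* (Zm00001eb313250, chromosome 7, 122675934 to 122681091) at 13.4, 15.9 and 10.4. The first pair matched rice CESA4 and CESA7 and the other pair rice CESA9, the trio that builds secondary walls in rice. In the group means the order *ZmCESA11* and *ZmCESA10* above *CesA13* above *ZmCESA12* held in all 6 groups. Zm00001eb043490 and Zm00001eb370930 had means of 2.12 and 0.810 FPKM, the second with an opposite-strand neighbour in its span. The seventh did not pass the filter.

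In the other roles, the leading members were Zm00001eb139920 (25.6 FPKM over all libraries) and Zm00001eb379070 (17.9) among CSL, *Bk2L3* (Zm00001eb057580; 43.1) and *Bk2L4* (Zm00001eb214720; 23.8) among COBRA-like genes, and the FLA17 match Zm00001eb213260 (42.3) and the FLA9 match Zm00001eb343680 (34.5) among FLA. Among endoglucanases Zm00001eb076600 (43.3), a match to the membrane-anchored rice enzyme GLU3, and Zm00001eb319710 (38.5) led. The single chitinase-like gene, Zm00001eb317090, was at 56.4, and of the CSLF genes Zm00001eb047650 (40.8) and *CslF6-1* (Zm00001eb415630; 20.0) were highest. CSI1 is split in the annotation: Zm00001eb279450, Zm00001eb279460, Zm00001eb279470 and Zm00001eb279480 are adjacent models on chromosome 6 (minus strand, 123060965 to 123070086) at means of 72.1, 57.8, 51.8 and 22.5 FPKM. They may be pieces of a single gene and are not independent. The other CSI members were Zm00001eb372570 (20.3), a CSI1 match, and the CSI3 match Zm00001eb091240 (8.10). In 19 members another feature overlaps on the same strand and in 20 on the opposite strand.

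Most calls came under WS. In WT, WS was compared with CT to see how cellulose genes respond when watering and its nutrients are withheld. Of the 83 members 13 were called, 3 higher and 10 lower, against 17.8% of all features called (7.41% higher, 10.4% lower). In *zmccd8* 20 were called, 4 higher and 16 lower, against 16.6% of all features (6.24% higher, 10.3% lower). The members' share is thus close to the background in WT and above it in *zmccd8*. Unadjusted p was under 0.05 for 36 and 37 of the 83, against 48.9% and 47.0% of all features. Of the called members 11 were shared with the same sign, 84.6% of the WT calls and 55.0% of the *zmccd8* calls. Median log2 differences of the 83 members were −0.09 in WT and −0.18 in *zmccd8*, and of all features −0.0075 and −0.0015. Each genotype was compared with its own CT libraries, which also serve the comparison with 0N.

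The largest fall was in a CSLF gene, and 2 of 5 CSLF genes were called lower in WT and 3 in *zmccd8*. Zm00001eb047650, a match to rice CSLF7 (chromosome 1, 244840535 to 244844173), was at 47.3, 63.3 and 60.1 FPKM in WT under CT and 8.17, 10.3 and 8.38 under WS, and in *zmccd8* at 52.9, 47.2 and 37.1 under CT and 4.92, 4.27 and 5.58 under WS. Every WS library lay below every CT library, and the mean was 6.36-fold lower in WT and 9.29-fold lower in *zmccd8*. The log2 differences were −2.54 (SE 0.15, adjusted p = 0.000124) and −2.97 (SE 0.16, adjusted p = 4.86e-05), the largest falls among the members in both genotypes. The CSLF3 match Zm00001eb323760 went from 11.3, 19.2 and 20.5 to 4.30, 5.38 and 5.19 in WT, a log2 difference of −1.56 (SE 0.23, adjusted p = 0.00342), and from 21.8, 12.6 and 19.9 to 6.27, 5.26 and 6.38 in *zmccd8*, −1.42 (SE 0.21, adjusted p = 0.0025). *CslF6-1*, a match to the main mixed-linkage glucan synthase of rice, was not called, at 17.2, 12.3 and 16.6 FPKM under CT and 16.3, 18.3 and 19.2 under WS in WT (0.22, adjusted p = 0.294).

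**Figure D1:**
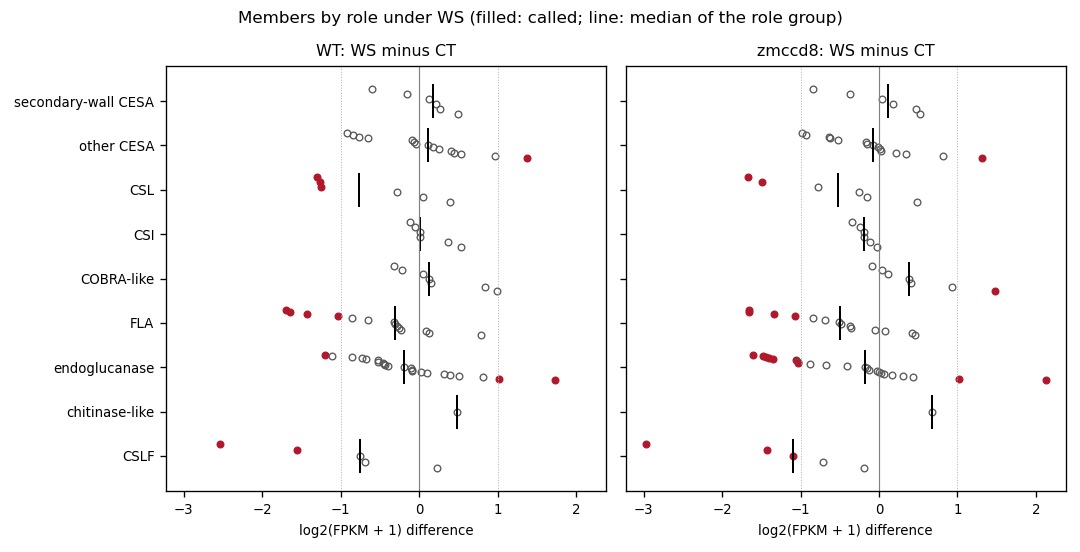
Differences in log2(FPKM + 1) between WS and CT for the 83 members that passed the filter, by role, in WT (left) and *zmccd8* (right). Each circle is a member, filled where called, the short line is the median of the role and dotted lines mark differences of −1 and 1. The match to rice CSLF7 lies farthest to the left in both panels, at −2.54 and −2.97.

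Of 14 FLA, 4 were called lower in each genotype and 0 higher. The FLA10 match Zm00001eb002090 went from 11.2, 11.4 and 18.4 FPKM to 3.48, 3.35 and 3.35 in WT (−1.70, SE 0.21, adjusted p = 0.00161) and from 19.0, 13.4 and 14.3 to 4.02, 3.87 and 4.70 in *zmccd8* (−1.66, SE 0.16, adjusted p = 0.000486), with no overlap. The FLA4 match Zm00001eb289670 had log2 differences of −1.65 (SE 0.19, adjusted p = 0.00142) in WT and −1.34 (SE 0.21, adjusted p = 0.00328) in *zmccd8*; FLA4 of *Arabidopsis* is needed for normal root growth in salt. The FLA7 match Zm00001eb101760 fell by 1.43 and 1.65, in WT with the call kept in 3 of 6 fits with 1 library left out. Also named here after their values were seen, the FLA11 match Zm00001eb353910 was called in WT (−1.04, adjusted p = 0.0138) and the FLA2 match Zm00001eb309110 in *zmccd8* (−1.07, adjusted p = 0.0187). Another FLA4 match, Zm00001eb367960, had higher values under WS in both genotypes (0.78 and 0.46) without being called.

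Among CSL genes, 3 of 6 were called lower in WT and 2 in *zmccd8*. *CSLD1* (Zm00001eb410030), a match to rice CSLD4 from a family that works in tip-growing and dividing cells, went from 3.29, 5.46 and 6.84 FPKM to 1.32, 1.79 and 1.48 in WT (−1.25, SE 0.25, adjusted p = 0.00897) and from 9.10, 4.19 and 5.77 to 1.43, 0.676 and 1.72 in *zmccd8* (−1.67, SE 0.29, adjusted p = 0.00516). The CSLE6 match Zm00001eb316070 fell by 1.31 and 1.49 on the log2 scale. The CSLG2 match Zm00001eb139920 was called in WT alone (−1.26, adjusted p = 0.0152, against −0.26 and 0.111 in *zmccd8*), and the interaction of genotype with WS for it was 1.005 (adjusted p = 0.458). Its call in WT was kept in 5 of 6 fits with 1 library left out.

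Against these falls, a few members rose under WS. *CesA-3* (Zm00001eb122750, chromosome 3, 11618198 to 11625220), a CESA1 match of low abundance, was at 5.70, 5.34 and 6.39 FPKM in WT under CT and 14.9, 22.0 and 13.8 under WS, and at 7.00, 5.70 and 5.66 under CT and 19.4, 18.0 and 13.1 under WS in *zmccd8*. The groups did not overlap, and the log2 differences were 1.37 (SE 0.19, adjusted p = 0.0027) and 1.31 (SE 0.17, adjusted p = 0.0016), a 2.92-fold and 2.75-fold rise of the mean. It was the only CESA called under WS of the 21 tested. *CesA-6* was at 31.3 ± 4.71 FPKM under CT and 61.9 ± 5.54 under WS in WT, with an adjusted p under the threshold and a log2 difference below 1 (0.97, SE 0.14, adjusted p = 0.00313). *CesA-7* and Zm00001eb096900, both CESA3 matches, had log2 differences of −0.77 and −0.85 in WT and of −0.93 and −0.98 in *zmccd8*, also below the limit of 1. The 4 well-expressed secondary-wall CESA differed by −0.15 to 0.49 in WT, none called.

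Of the endoglucanases, 2 were called higher in both genotypes, and 1 of 23 was called lower in WT against 7 in *zmccd8*. Zm00001eb015710, a match to the membrane-anchored rice enzyme GLU1 (chromosome 1, 54267718 to 54272134), rose from 1.01, 0.968 and 0.482 FPKM to 5.13, 4.62 and 5.27 in WT and from 0.754, 0.892 and 0.637 to 6.24, 8.08 and 5.84 in *zmccd8*. The log2 differences were 1.73 (SE 0.17, adjusted p = 0.000784) and 2.12 (SE 0.17, adjusted p = 0.000203), the largest rises among the members. The GUN22 match Zm00001eb311900 went from 3.64, 2.59 and 2.13 to 6.46, 8.10 and 5.36 in WT (1.02, SE 0.22, adjusted p = 0.012) and by 1.02 in *zmccd8*, just past the limit of 1, and the calls were kept in 3 and 4 of 6 fits that left out a library. The called falls were of genes with means below 5 FPKM, such as the GUN4 match *Cel17* (Zm00001eb230580; −1.60 in *zmccd8*), with the exception of *Cel12Chr1* (Zm00001eb434590), another GLU3 match, at 38.6, 24.1 and 32.0 FPKM under CT and 17.1, 11.003 and 15.8 under WS in *zmccd8* (−1.06, SE 0.22, adjusted p = 0.00959).

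Of the 7 COBRA-like genes 0 were called in WT and 1 was called higher in *zmccd8* (limma), and the 2 and 3 with unadjusted p under 0.05 were all higher under WS. *Bk2L7* (Zm00001eb327000) rose in *zmccd8* from 5.65, 8.74 and 3.82 to 18.5, 20.7 and 14.8 FPKM (1.47, SE 0.26, adjusted p = 0.00547), and in WT it went from 5.62, 4.598 and 4.37 to 13.8, 11.8 and 7.18, 0.99 on the log2 scale and thus just under the limit of 1 (adjusted p = 0.0199). It overlaps *Bk2L6* on the opposite strand, and how the strand was used in counting is not given in the sources used here. *Bk2L4* was at 17.3 ± 2.92 and 31.5 ± 0.994 FPKM in WT and at 20.3 ± 4.75 and 38.8 ± 3.51 in *zmccd8* (0.84 and 0.93, adjusted p = 0.00458 and 0.00758), with no overlap. The chitinase-like gene Zm00001eb317090 was higher by 0.48 (adjusted p = 0.0354) in WT and by 0.68 (0.00179) in *zmccd8*, below the limit of 1. CSI genes ran from −0.12 to 0.53 in WT, with 4 of 6 above 0, and from −0.35 to −0.03 in *zmccd8*, with all 6 below 0, and in both genotypes 0 were called and 0 had an unadjusted p under 0.05.

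**Figure D2:**
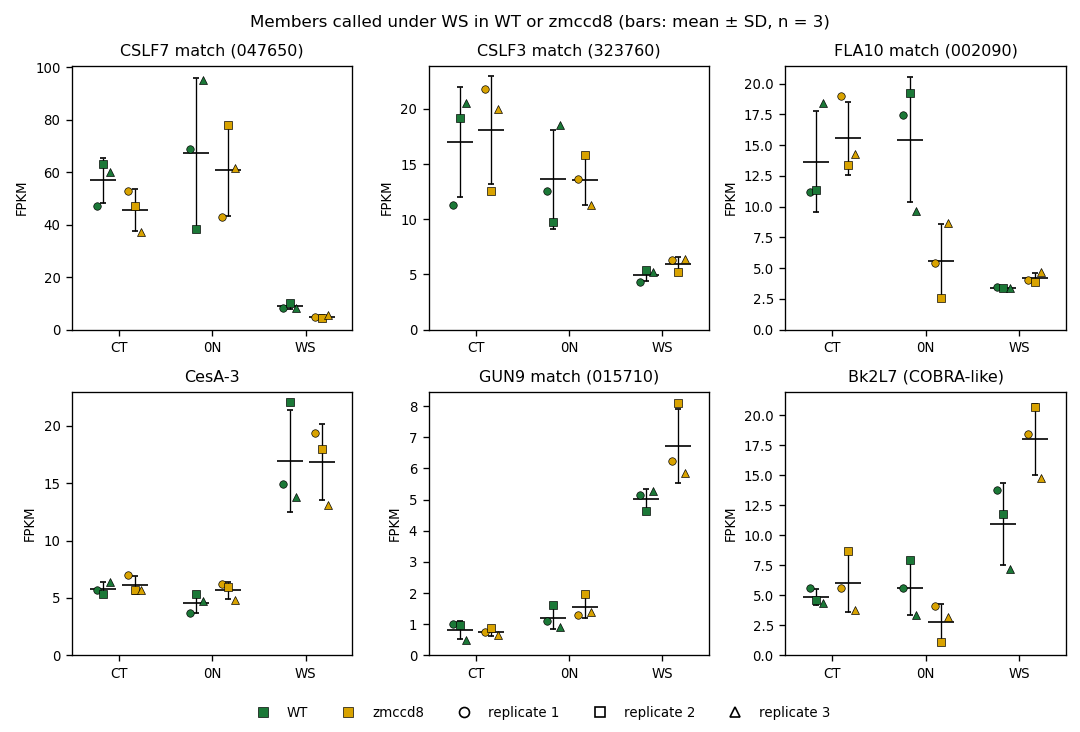
FPKM in each library for 6 members called under WS, by treatment and genotype (green, WT; yellow, *zmccd8*). Symbols are replicates and bars are mean ± SD (n = 3). The upper row fell under WS in both genotypes, as the CSLF7 match from 47.3, 63.3 and 60.1 to 8.17, 10.3 and 8.38 FPKM in WT, and the lower row was higher under WS.

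Marker genes moved with WS too. Of 25 dividing-cell markers (matches to B-type cyclins and histone H4) 13 were called lower in WT and 9 in *zmccd8*, with 0 higher. Their summed level ran from 1624 to 2348 FPKM in WT under CT and from 921.5 to 1101 under WS. For *zmccd8* the sums ran from 1448 to 2112 and from 918.2 to 1388. The cyclin match with the highest mean, Zm00001eb353660 (118.9 FPKM), has no protein domain in its description. Of 11 root markers, matches to Casparian strip membrane proteins and nicotianamine aminotransferase, 9 and 8 were called lower. Their sums were 522 to 1001 FPKM in WT under CT and 203.4 to 277.5 under WS, and 450.1 to 907.8 and 316.4 to 321 in *zmccd8*. A single nicotianamine aminotransferase match, Zm00001eb240650, had a mean of 298.9 FPKM, and the highest Casparian strip match 18.4, so the sums mostly follow the former family. Leaf markers, 8 tested, had 1 called higher and 1 lower in WT, with sums of 247.3 to 324.8 and 358.9 to 407.5 FPKM, most of it from phosphoenolpyruvate carboxylase genes, a family that roots also express. The part of these markers in the changes of the cellulose genes was not tested.

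Without nitrogen the members had mostly higher values in WT and mostly lower values in *zmccd8*. In WT 5 members were called, 3 higher and 2 lower, against 4.76% of all features (1.94% higher, 2.82% lower), and in *zmccd8* 14 were called, all of them lower, against 7.37% of all features (1.74% higher, 5.63% lower). The median log2 difference of the 83 members was 0.35 in WT and −0.56 in *zmccd8*, where the median over all features was 0.00 and −0.01. In WT 66 of the 83 had a difference above 0, and in *zmccd8* 23. Unadjusted p was under 0.05 for 30 and 35 members, against 30.7% and 40.0% of all features.

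The 4 well-expressed secondary-wall CESA had their highest WT means under 0N but were not called. *ZmCESA11* was at 87.9, 141 and 45.7 FPKM in WT under 0N, 2.21 times its CT mean, and *ZmCESA10* at 96.3, 149 and 44.8, 2.36 times. *CesA13* was at 52.5, 70.2 and 25.0 and *ZmCESA12* at 35.7, 48.3 and 16.7, 2.79 and 2.53 times. The replicates had the same order in all 4 genes, replicate 2 highest and replicate 3 lowest, and for *ZmCESA11* and *ZmCESA10* replicate 3 lay within the CT range. The log2 differences were 1.04 (SE 0.44, adjusted p = 0.169), 1.08 (SE 0.42, adjusted p = 0.145), 1.33 (SE 0.37, adjusted p = 0.0725) and 1.18 (SE 0.38, adjusted p = 0.0993), so none passed, and unadjusted p was under 0.05 for 4 of the 6 tested secondary-wall CESA. Without replicate 2 of WT under 0N the difference of *ZmCESA11* was 0.66, the median over the 83 members 0.17 and the count of calls in WT 2. The differences of *ZmCESA10*, *CesA13* and *ZmCESA12* were then 0.69, 1.02 and 0.86. In *zmccd8* under 0N the 4 genes were at 81.9, 12.7 and 73.3, at 39.4, 6.96 and 59.5, at 22.5, 4.44 and 30.1 and at 16.6, 3.10 and 22.5 FPKM, with replicate 2 far below the others in each. Their log2 differences from CT, −0.54, −1.16, −0.97 and −1.05, did not pass (adjusted p from 0.255 to 0.58), and without replicate 2 they were 0.30, −0.28, −0.19 and −0.28. In WT, without replicate 3 under 0N, *ZmCESA10* (1.54), *CesA13* (1.74) and *ZmCESA12* (1.60) were called and *ZmCESA11* (1.46) was not.

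*bk2* (*brittle stalk2*, Zm00001eb393070, chromosome 9, 128931645 to 128933956), the COBRA-like gene whose loss makes maize stalks brittle, was called higher in WT. It was at 6.59, 6.20 and 9.24 FPKM under CT and 21.7, 24.4 and 11.9 under 0N, with no overlap (1.24, SE 0.29, adjusted p = 0.048), but the call was kept in only 1 of 6 fits that left out a library. In *zmccd8* it was at 7.18, 13.9 and 7.57 under CT and 9.01, 4.30 and 12.3 under 0N (−0.19, adjusted p = 0.742), a difference that turned to 0.19 without replicate 2 under 0N and to 0.09 without replicate 2 under CT. A second model at the locus, Zm00001eb393080 on the other strand, had a mean of 1.31 FPKM. The other calls in WT were the FLA4 match Zm00001eb367960, from 1.71, 1.37 and 1.504 to 4.05, 4.05 and 4.56 FPKM (1.05, SE 0.14, adjusted p = 0.0128), the GUN22 match Zm00001eb311900, from 3.64, 2.59 and 2.13 to 7.16, 7.47 and 6.04 (1.07, SE 0.19, adjusted p = 0.0283), and, lower, the GUN17 match Zm00001eb280690 (−1.12, SE 0.14, adjusted p = 0.0121) and the CSLE6 match Zm00001eb316070 (−1.07, SE 0.21, adjusted p = 0.0336). None of the 5 was called under every alternative, and without replicate 1 of WT under 0N the count was 0. No CSI gene was called in WT, where all 6 were higher, by 0.36 to 0.94.

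The CESA outside the secondary-wall set were higher in the WT mean under 0N in 13 of 15 genes. Their median was 0.31, with 0 called and 3 with unadjusted p under 0.05. *CesA-7* was at 116, 172 and 86.9 FPKM in WT under 0N (0.43, adjusted p = 0.415) and at 139, 57.3 and 111 in *zmccd8* (−0.18, 0.699), against 119, 97.0 and 61.0 and 119, 98.7 and 109.9 under CT. Without replicate 2 of *zmccd8* under 0N the *zmccd8* difference of *CesA-7* turned to 0.19. In *zmccd8* the 15 genes had a median of −0.10, with 0 called and 4 with unadjusted p under 0.05. *CesA-6* was higher under 0N in both genotypes, at 49.6 ± 12.8 FPKM in WT (0.63, adjusted p = 0.0985) and 40.0 ± 4.55 in *zmccd8* (0.15, 0.51). The chitinase-like gene Zm00001eb317090 was at 46.7, 40.3 and 42.6 FPKM under CT and 65.8, 74.8 and 43.4 under 0N in WT and at 55.1, 50.4 and 54.1 under CT and 35.9, 17.5 and 47.6 under 0N in *zmccd8*. Neither difference passed, at 0.46 (SE 0.21, adjusted p = 0.186) and −0.75 (SE 0.33, adjusted p = 0.139), the latter −0.35 without replicate 2 of *zmccd8* under 0N.

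**Figure D3:**
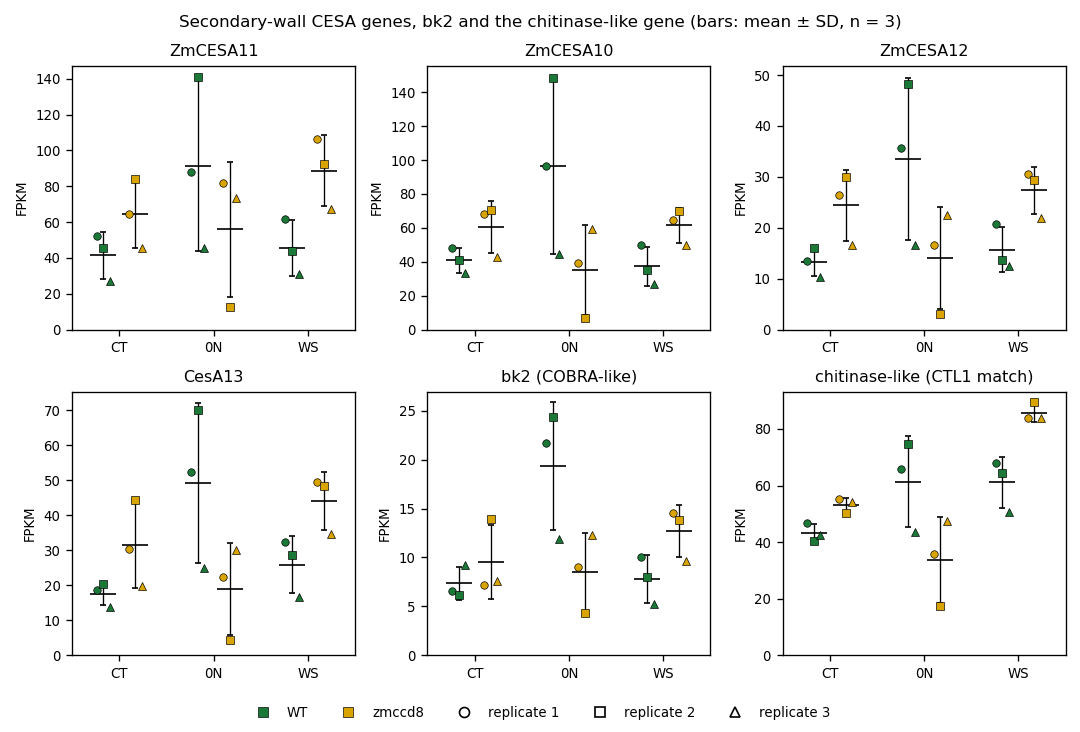
FPKM in each library for the 4 well-expressed secondary-wall CESA, *bk2* and the chitinase-like gene, by treatment and genotype (green, WT; yellow, *zmccd8*). Symbols are replicates and bars are mean ± SD (n = 3). Replicate 2 (squares) is the highest of WT under 0N and the lowest of *zmccd8* under 0N in each panel, for *ZmCESA11* at 141 and 12.7 FPKM.

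In *zmccd8* the called falls under 0N were 7 of 23 endoglucanases, 5 of 14 FLA, 1 CSL and 1 CSLF gene. The GUN13 match *Cel4* (Zm00001eb433630) went from 4.78, 3.57 and 6.31 FPKM to 0.588, 0.400 and 0.493, a 9.90-fold lower mean (−1.95, SE 0.21, adjusted p = 0.0109), and was the single member called in all 12 alternatives. In WT it was at 4.26, 3.44 and 2.61 under CT and 1.68, 1.17 and 3.39 under 0N (−0.57, adjusted p = 0.24). Among membrane-anchored endoglucanases, the GLU3 match Zm00001eb076600 went from 63.1, 30.1 and 50.9 to 18.1, 10.7 and 23.3 FPKM (−1.42, SE 0.35, adjusted p = 0.0425) and *Cel12Chr1* from 38.6, 24.1 and 32.0 to 12.8, 9.92 and 15.5 (−1.24, SE 0.22, adjusted p = 0.0264), again with no overlap of the groups. In WT both were higher under 0N, by 0.20 and 0.43, and not called.

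FLA had a median log2 difference of −1.18 in *zmccd8*, against 0.45 in WT. Both medians include replicate 2 under 0N. That library of *zmccd8* was the lowest of all 18 in 11 of the 14 FLA (78.6%), and that of WT the highest in 7 (50.0%). The FLA7 matches Zm00001eb316460, Zm00001eb199660 and Zm00001eb101760 were called, from 29.1, 14.8 and 21.9 to 6.97, 2.30 and 9.60 FPKM (−1.76, SE 0.46, adjusted p = 0.0455), from 23.9, 12.2 and 21.3 to 5.87, 3.14 and 8.67 (−1.58, SE 0.37, adjusted p = 0.0387) and from 6.83, 2.69 and 6.26 to 1.21, 0.174 and 1.203 (−1.73, SE 0.38, adjusted p = 0.0355). Also called were the FLA10 match Zm00001eb002090 (−1.43, SE 0.36, adjusted p = 0.0432) and the FLA17 match Zm00001eb213260 (−1.06, SE 0.25, adjusted p = 0.041). In each of these 5 genes every 0N library lay below every CT library, and replicate 2 was the lowest. Of the 14 FLA, 9 were apart in this direction, against 22.5% of all features. Each of the 5 calls was kept in only 1 or 2 of 6 fits that left out a library. The FLA9 match Zm00001eb343680, at 51.0, 29.1 and 41.5 FPKM under CT and 19.8, 4.18 and 24.8 under 0N, did not pass (−1.53, SE 0.59, adjusted p = 0.105), and the difference was −0.81 without replicate 2.

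A pair of members known from root hairs is named here after their values were seen. Zm00001eb025100, a match to rice CSLD1, which root hairs of rice need to elongate, was called, from 2.78, 2.12 and 2.72 to 0.977, 0.143 and 0.262 FPKM (−1.31, SE 0.24, adjusted p = 0.0267). This call was kept in 3 of 6 fits with 1 library left out. The WT values of the gene were 2.53, 2.08 and 0.718 under CT and 1.24, 1.83 and 3.72 under 0N. *rth3* (*roothairless3*, Zm00001eb014120), a COBRA-like gene needed for root hair growth in maize, was at 7.85, 5.23 and 6.04 FPKM under CT and 2.66, 2.63 and 3.12 under 0N, a log2 difference of −0.94 (SE 0.19, adjusted p = 0.0325), under the limit of 1. In WT *rth3* was at 6.19, 7.35 and 4.86 under CT and 5.28, 12.6 and 3.33 under 0N.

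The count of 14 rests on particular libraries. With replicate 2 of *zmccd8* under 0N left out it was 1, with replicate 1 left out it was 2 and with replicate 3 left out it was 22, and with replicate 1 or 3 of *zmccd8* under CT left out it was 1 each time. The median over the 83 members without replicate 2 was −0.28. All calls of members were of lower values in every one of these fits. The count over all features, 2029, moved in the same directions. It was 505, 189 and 2707 without replicate 2, 1 and 3 of *zmccd8* under 0N. Without replicate 1 and 3 of *zmccd8* under CT it was 173 and 119. Dividing-cell markers were called lower in 4 of 25 genes in WT and 8 in *zmccd8*, with 0 higher, and their sums ran from 978.8 to 1291 FPKM in WT under 0N and from 527.2 to 911.8 in *zmccd8* under 0N. Of 11 root markers 2 were called lower in each genotype, with sums of 462 to 512.5 and 439.6 to 509.7 FPKM under 0N. Their part in the cellulose genes was not tested.

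**Figure D4:**
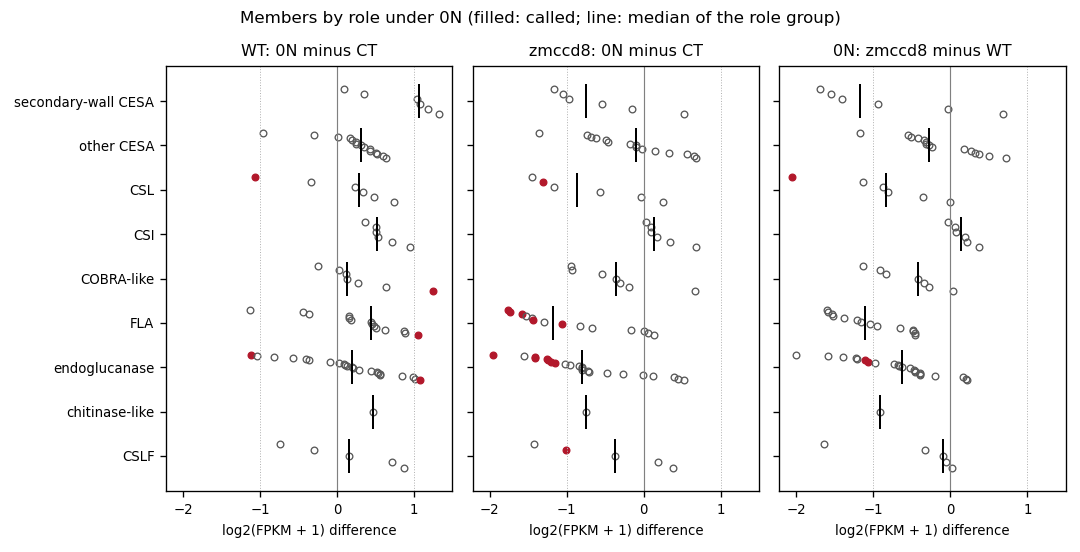
Differences in log2(FPKM + 1) for the 83 members by role: 0N minus CT in WT (left) and in *zmccd8* (middle), and *zmccd8* minus WT under 0N (right). Each circle is a member, filled where called, the short line is the median of the role and dotted lines mark −1 and 1. The median of the secondary-wall CESA is 1.06 on the left, −0.75 in the middle and −1.17 on the right, with no member of that role called.

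Between genotypes, few members were called. Under CT 1 of 83 was called, lower, against 0.835% of all features (0.4% lower), under 0N 3, all lower, against 1.57% (0.89% lower), and under WS 0, against 0.901%. Unadjusted p was under 0.05 for 10, 25 and 24 members, where the background is 7.38%, 26.8% and 13.5%. Under WS the fit of all 18 libraries gave 1 in place of 24. Of the 10 under CT, 9 were higher in *zmccd8*, against 3.19% of all features, and the genotypes did not overlap in 11 members that were higher and 1 that was lower, against 5.79% and 6.33%. The count under WS was also 0 with limma voom on the rebuilt reads. These comparisons ask whether the loss of *ZmCCD8* changes the level of cellulose genes within a condition. A member that was not called may still differ, since each fit held only 6 libraries. Under 0N 66 of the 83 had a log2 difference below 0, with a median of −0.47 against −0.01 over all features. The genotypes were apart, with *zmccd8* lower, in 24 members, against 16.7% of all features. Without replicate 2 of *zmccd8* under 0N the median was −0.26.

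The gene called under both CT and 0N was Zm00001eb139920, which matched CSLG2 of *Arabidopsis* and lies on chromosome 3 from 147102479 to 147105834. Under CT WT was at 29.3, 47.3 and 33.8 FPKM and *zmccd8* at 13.8, 15.0 and 14.1. Under 0N WT was at 69.8, 51.9 and 62.0 and *zmccd8* at 10.4, 15.4 and 16.5. The genotypes did not overlap in either condition, the WT mean being 2.58-fold and 4.33-fold higher. The log2 differences of *zmccd8* from WT were −1.28 (SE 0.18, adjusted p = 0.0262) and −2.05 (SE 0.20, adjusted p = 0.00432). Under WS they overlapped, at 14.0, 21.1 and 10.03 in WT and 13.0, 11.3 and 11.1 in *zmccd8* (−0.27, adjusted p = 0.678). In *zmccd8* the gene thus stayed between 10.4 and 16.5 FPKM in all 3 conditions, whereas in WT it ranged from 10.03 to 69.8. The call under CT was kept in 2 of 6 fits with 1 library left out. Between 140 and 210 Mb on chromosome 3, the region that holds both this gene and *ZmCCD8*, lie 4.1% of the tested features and 55.7% of all features called between genotypes under CT, 38.1% under 0N and 50.8% under WS. Whether the gene differs through *ZmCCD8* or through its place on the chromosome cannot be told apart. The other tested member in that stretch, *ZmCESA11*, was not called under CT, 0N or WS (0.64, −0.93 and 0.98), and the second of these values was −0.10 without replicate 2 of *zmccd8* under 0N.

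Under 0N the other calls were *Cel12Chr1*, at 29.6, 32.4 and 23.5 FPKM in WT and 12.8, 9.92 and 15.5 in *zmccd8* (−1.11, SE 0.19, adjusted p = 0.044), and the GUN22 match Zm00001eb311900, at 7.16, 7.47 and 6.04 in WT and 2.70, 2.48 and 3.15 in *zmccd8* (−1.06, SE 0.16, adjusted p = 0.0295). Both calls were kept in 1 of 6 fits that left out a library, and that of the CSLG2 match in 6, so that without replicate 2 of either genotype the count was 1. All 14 FLA had lower values in *zmccd8* than in WT under 0N, 9 with unadjusted p under 0.05 and 10 with groups that did not overlap, against 16.7% of all features apart in that direction, and 0 were called. Their log2 differences ran from −1.60 to −0.46 (median −1.10), with the lowest adjusted p of 0.0703, in the FLA2 match Zm00001eb282320, named after its values were seen, at 44.4, 46.6 and 30.2 FPKM in WT and 18.6, 14.9 and 23.8 in *zmccd8*. *CslF6-1* was at 27.2, 42.9 and 19.6 in WT and 11.9, 3.84 and 12.5 in *zmccd8* (−1.64, SE 0.45, adjusted p = 0.107), and the GUN16 match *Cel3* (Zm00001eb371630), named after its values were seen, had −1.999 (SE 0.55, adjusted p = 0.106). Without replicate 2 of *zmccd8* under 0N the difference of *CslF6-1* was −1.16. In a fit of all 18 libraries, which shares 1 estimate of the spread over the 6 groups, 18 members were called under 0N and all were lower. That fit called 1443 of all 27530 features, 484 higher and 959 lower.

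Under WS the well-expressed secondary-wall CESA had higher values in *zmccd8* and none was called. *ZmCESA11* was at 61.6, 44.0 and 30.8 FPKM in WT and 107, 92.7 and 67.0 in *zmccd8*, and *ZmCESA10* at 49.8, 35.2 and 27.1 in WT and 64.6, 69.6 and 50.1 in *zmccd8*. *CesA13* was at 32.4, 28.5 and 16.7 in WT and 49.4, 48.4 and 34.6 in *zmccd8*, and *ZmCESA12* at 20.7, 13.7 and 12.6 in WT and 30.6, 29.4 and 21.9 in *zmccd8*. No library of the genotypes overlapped in any of the 4 genes, in a comparison where 9.28% of all features were apart in this direction. The log2 differences were 0.98, 0.73, 0.78 and 0.78, under the limit of 1, with adjusted p of 0.197, 0.243, 0.263 and 0.185. Under CT they were also higher in the *zmccd8* mean, by 0.54 to 0.81, with adjusted p of 0.408 or more.

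**Figure D5:**
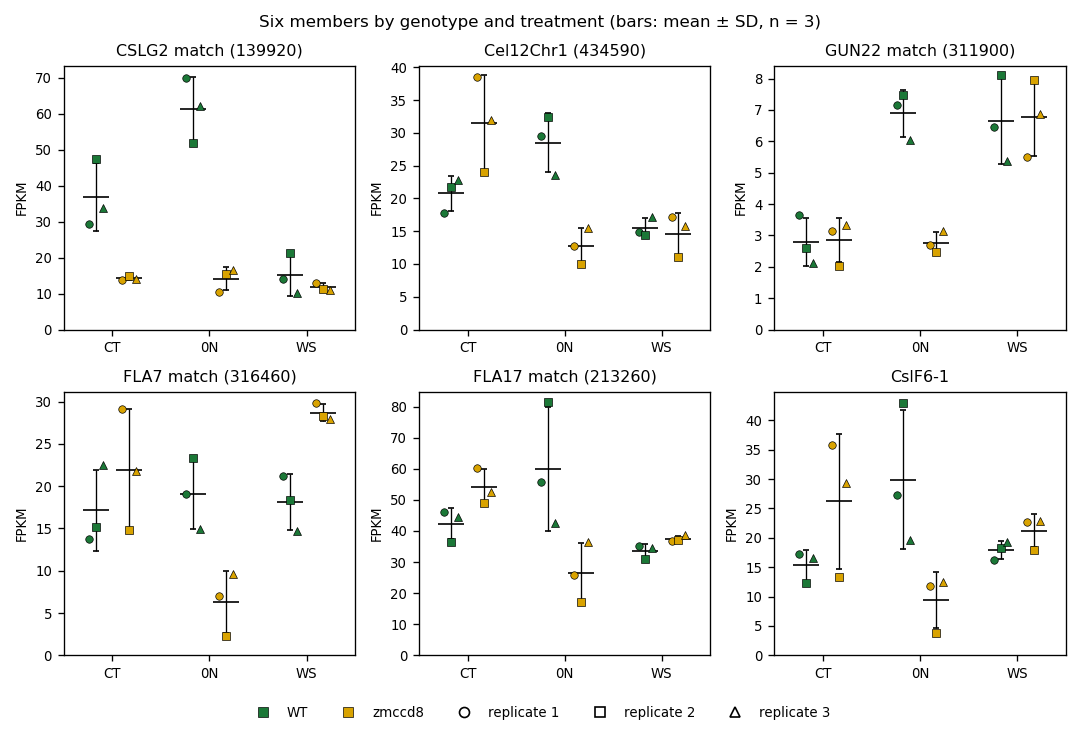
FPKM in each library for 6 members, by treatment and genotype (green, WT; yellow, *zmccd8*). Symbols are replicates and bars are mean ± SD (n = 3). The CSLG2 match is at 14.3 ± 0.607 FPKM in *zmccd8* against 36.8 ± 9.37 in WT under CT, and in the other 5 members every *zmccd8* library lies below every WT library under 0N.

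The change under 0N was compared between genotypes as an interaction, fitted on 12 libraries and given as the change in *zmccd8* less the change in WT. It called 0 members and 0.0% of all features, and limma voom also called 0 members. Unadjusted p was under 0.05 for 31 of the 83 members, all with a more negative change in *zmccd8*, where 17.5% of all features reached it (9.58% in that direction). The median over the members was −0.71 and over all features 0.00. By role the medians were −1.90 for the secondary-wall CESA, −0.54 for the other CESA, −0.91 for CSL, −0.46 for CSI, −0.58 for COBRA-like genes, −1.19 for FLA and −0.90 for endoglucanases. The largest single values were those of *CesA13* (−2.29, SE 0.82, adjusted p = 0.21), *CslF6-1* (−2.28, SE 0.62, adjusted p = 0.171), *ZmCESA10* (−2.24, SE 0.90, adjusted p = 0.246) and *ZmCESA12* (−2.22, SE 0.80, adjusted p = 0.213). Without replicate 2 of *zmccd8* under 0N they were −1.52, −1.80, −1.36 and −1.45. The smallest adjusted p was that of *Cel12Chr1* (−1.68, SE 0.28, adjusted p = 0.14), which was called when all 18 libraries were fitted together (adjusted p = 0.0396) or replicate 3 of *zmccd8* under 0N was left out (0.0494). Without replicate 2 of *zmccd8* under 0N the median over the members was −0.54, and 23 had an unadjusted p under 0.05.

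For WS the interaction called 0 members and 6 of all features (0.0218%), limma voom called 0 members, and unadjusted p was under 0.05 for 4 of the 83, against 7.94% of all features. The member with the lowest unadjusted p was the CSLG2 match (1.005, SE 0.32, adjusted p = 0.458).

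Other genes of wall formation were followed as lists. Of 6 tested sucrose synthases, which supply UDP-glucose, 2 were called higher and 2 lower under WS in WT, 2 and 3 in *zmccd8*, and 0 under 0N. Of 5 UTP-glucose-1-phosphate uridylyltransferases 1 was called lower under WS in each genotype and 1 lower under 0N in WT. Of 43 genes of xylan synthesis, the hemicellulose of grass secondary walls, 2 were called higher and 6 lower under WS in WT, 1 and 2 in *zmccd8*, and under 0N 0 in WT and 1 lower in *zmccd8*. Of 21 laccases, which polymerise lignin, 3 were called higher and 1 lower under 0N in WT, and 0 and 3 in *zmccd8*. For the same laccases WS gave 2 calls higher and 5 lower in WT plants, and 2 higher and 8 lower in the mutant. Of 21 tubulins 0 were called in WT and 1 higher in *zmccd8* under 0N. With WS, 2 tubulins were called lower in WT plants and 1 in the mutant, and 0 higher. The shares of all features called were 17.8% (WT) and 16.6% (mutant) with WS, and 4.76% and 7.37% with 0N. The median interaction with 0N was −0.55 for xylan synthesis, −1.04 for laccases, −0.67 for tubulins, −0.31 for sucrose synthases and −0.08 for the uridylyltransferases, with 0 genes called in each list. Dividing-cell markers had −0.67.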

How the data were processed

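Strand-specific poly-A RNA-seq of maize roots was deposited as 1 table of 55661 features. According to the study's methods and the submitters' processing notes, the authors filtered reads with fastp, aligned them with HISAT2 2.0.5 to Zm-B73-REFERENCE-NAM-5.0, assembled transcripts with StringTie and counted with featureCounts. The use of strand in counting is not given in the sources used here. The values in the deposited table are FPKM, normalized by the authors for gene length and library size. Multiplying back by length gave whole reads within 0.01 for 100% of values, with a median of 34826106 per library. The library size behind the FPKM was 0.967 to 1.046 times the sum of these reads, so it was not that sum alone. The table had 0 columns of per-sample values that matched no sample.

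Differences were tested on log2(FPKM + 1), which understates the change of low genes, with limma 3.58.1 (R 4.3.3) and an intensity trend. Features with at least 1 FPKM in 3 of 18 libraries were kept. A comparison used its own 6 libraries, an interaction 12. The members and lists were chosen with earlier results of these data known. RefSeq names required an overlap of at least 50 percent of both genes. The text names every CESA that passed the filter, the 2 members of highest mean in each other role, the 5 highest and 5 lowest log2 differences called in a comparison, and every member called between genotypes. Others are said to be chosen after their values were seen.

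Groups and replicate numbers came from the labels, which give no batch, and p-values measure the spread among libraries of pooled plants. Residuals of same-numbered libraries correlated above 0.1 in all 3 pairs only for WS against CT in *zmccd8* (0.135, 0.224 and 0.253). The printed values come from fits without a block; for that comparison a fit with the replicate number as a block also called 20 members, with 44 in place of 37 at an unadjusted p under 0.05. The alternatives were a pseudocount of 0.1, no filter, all 18 libraries in 1 fit, the replicate block, limma voom on rebuilt reads, median-of-ratios scaling and leaving out each library. The median-of-ratios factors were 1.001 to 1.01, so that scaling could change little. Python 3.11.15, pandas 2.3.3, numpy 2.4.6 and matplotlib 3.10.9 were also used.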

Additional observations from a re-analysis of the deposited data

How the results depend on the processing

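Under WS the number of members called stayed within 1.5 times the value given in every alternative with all libraries, and 8 of 13 calls in WT and 15 of 20 in *zmccd8* were kept under all alternatives. With 1 library left out the counts ran from 11 to 16 in WT and from 15 to 22 in *zmccd8*. Under 0N the counts depended on the processing. In WT the 5 calls became 2 with no filter, 8 with limma voom and 1 with the replicate block, and 0 to 5 with 1 library left out. In *zmccd8* the 14 became 1 with no filter, 23 with all 18 libraries, 23 with the replicate block and 1 to 22 with 1 library left out. Between genotypes the single call under CT became 0 with no filter and 0 with the block, and 0 to 1 with 1 library left out. The 3 under 0N became 1 with no filter, 18 with all 18 libraries, 0 with the block and 1 to 7 with 1 library left out. The interaction with 0N went from 0 to 1 with all 18 libraries and 0 to 1 with 1 library left out. The counts for genotype under WS and the interaction with WS were 0 with any single library left out. The cause was not tested. The labels do not say what a replicate number stands for. Residuals of same-numbered libraries correlated at 0.143, 0.390 and 0.096 for 0N against CT in *zmccd8*. Between genotypes under 0N they correlated at −0.103, −0.293 and −0.388. Over all features, 0N in WT called 1311, 544 with no filter and 601 with the block, 0N in *zmccd8* called 2029 and 182 with no filter, and genotype under 0N called 433, 1443 with all 18 libraries, 131 with the block and 215 with no filter. Genotype called 230 under CT and 248 under WS, and 124 and 139 with no filter. The interaction with 0N called 0, 2 with no filter and 19 with all 18 libraries. That with WS called 6, with 0 for the smaller pseudocount and for voom, 9 with no filter, 17 with all 18 libraries and 2 with the block. Of the differences printed for single members, 3 turned sign in some alternative, all for 0N in *zmccd8*. Without replicate 2 of *zmccd8* under 0N, *ZmCESA11* (Zm00001eb153340) went from −0.54 to 0.30, *CesA-7* (Zm00001eb306030) from −0.18 to 0.19 and *bk2* (Zm00001eb393070) from −0.19 to 0.19, and *bk2* to 0.09 without replicate 2 under CT. Over the fits that left out a library they ran from −0.99 to 0.30, from −0.44 to 0.19 and from −0.48 to 0.19.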
